A study of Mus musculus with 12 samples.

Results

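The genes of transforming growth factor beta (TGF-beta) and bone morphogenetic protein (BMP) signalling were examined in primary fibroblasts of mouse embryos, which are cultured connective tissue cells. They were taken by symbol. The rule covered Tgfb1 to Tgfb3, Tgfbr1 to Tgfbr3, all symbols that start with Bmp and a digit, with Bmpr, with Gdf and a digit, with Acvr or with Inhb, the Smad genes, and secreted antagonists that include Grem1, Nog, Chrd and Fst. This gave 54 of the 24054 genes in the table. The symbols also brought in Bmp1, which encodes a procollagen protease, and Bmp2k, which encodes a kinase, and neither product is a BMP ligand. Polyadenylated RNA was sequenced from cells of 4 genotypes with 3 libraries each, namely wild type (WT), Blm -/- (here Blm KO), Recql -/- (here Recql KO) and Blm -/- Recql -/- (here double KO), to find transcripts that differ from WT. Blm and Recql encode DNA helicases of the RecQ family. All cells were primary cultures kept at 3% O2 and 5% CO2 in medium with 10% bovine serum, and the labels name no other allele or agent. The labels give neither the age of the embryos nor say that libraries sharing a genotype are from different embryos. The p-values therefore measure the spread of these libraries alone. In each mutant genotype Y-linked transcripts differed widely between libraries (values below), so not all libraries of that genotype hold the same cells. Among libraries alike in these transcripts, as in WT, the spread may be technical.

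Ligands of this family are secreted as dimers and bind a pair of type II and a pair of type I receptor kinases on the cell surface. TGF-betas and activins mainly lead to phosphorylation of SMAD2 and SMAD3, and BMPs and many growth and differentiation factors (GDFs) to that of SMAD1, SMAD5 and SMAD9, each set acting in the nucleus with SMAD4. SMAD6 and SMAD7 inhibit the pathway inside the cell, and gremlin 1, noggin, chordin and follistatin bind ligands outside it. In fibroblasts TGF-beta is known for driving matrix production, and BMPs are known for cartilage and bone formation.

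Library totals ranged from 47758552 to 59296354 expected counts. Levels are CPM, counts scaled to a fixed library total with edgeR's trimmed mean of M values (TMM), and 45 of the 54 genes had enough counts to be tested. A gene was called changed at an adjusted p under 0.05 in edgeR's quasi-likelihood test over all 14876 genes tested. All 9 fibroblast markers examined, such as Col1a1, Pdgfra and Vim, were above 1 CPM in every library. Blm was lowered in the groups labelled for its loss, but Recql was not (27.7 CPM in WT, 25.2 in Recql KO and 26.3 in double KO), so Recql KO and double KO mean here the libraries labelled so, and directions that involve them depend on the labels. The Recql KO libraries stood apart on the first principal component (74.1 to 79.7, against -54.4 to -7.02 for the other 9). Y-linked transcripts summed to 229 to 283 CPM in all 3 WT libraries, Blm KO replicate 1, Recql KO replicate 1 and double KO replicate 2, to 28.7 CPM in Recql KO replicate 2, which also held Xist, and to 0.676 to 6.25 CPM in the other 5.

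In WT cells, levels compared per kilobase of exon put the ligand Tgfb3 at 150.1 CPM per kilobase. Among the genes described here the BMP antagonist Grem1 was next at 58.3, then the BMP receptor gene Bmpr1a at 47, Bmp4 at 34.1 and the activin-binding antagonist Fst at 32.8. In Recql KO the order of the described genes on the same scale was Grem1 at 135, Tgfb3 at 72.5 and Inhba at 56.4 CPM per kilobase, with Bmp4 at 6.58. Not tested for want of counts were Acvr1c, Bmp10, Bmp15, Gdf1, Gdf2, Gdf3, Gdf7, Inhbc and Inhbe. Bmp10 had 0 counts in all 12 libraries, where 3 counts, an approximate upper confidence limit for a count of 0, correspond to 0.0508 to 0.0614 CPM.

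The comparison of Recql KO with WT asks which members go with that label alone. Transcripts of the BMP antagonist Grem1 and of the tested activin subunits rose, and those of other ligands went both ways. In all, 20 of the 45 tested members were called (44.4%), against 29.9% of all genes tested. The 13 that rose, or 28.9% of members against 14.2% of all genes, included Grem1, Inhba, Inhbb, Gdf11, Gdf15, Acvr1, Acvrl1, Bmpr1b, Bmpr2, Tgfbr3, Smad7 and Bmp2k. The 7 that fell were Tgfb2, Tgfb3, Bmp4, Bmp5, Gdf6, Acvr1b and Bmpr1a, or 15.6% of members and 15.6% of all genes. The median log2 fold change was -0.09 over members and -0.01 over all genes, and the median of its absolute size was 0.68 over members and 0.29 over all genes. Libraries of the groups did not overlap for 16 members that were higher, against 23.9% of genes, and 15 that were lower, against 25.4%, or 31 in all, against 49.3%. Counted after the values were seen, the 3 Recql KO libraries lay above all other 9 libraries for 12 members, against 13.5% of all genes, and below them for 8, against 13.7%. In the 6 Y-high libraries (over 100 CPM of Y-linked transcripts), which keep 1 Recql KO library and assume that it varies like WT, 6 of 46 members were called against 7.39% of genes. These were Bmp4, Gdf6, Grem1, Inhba and Bmp2k, which are among the 20, and Gdf10, which is not, so 15 of the 20 calls were lost there.

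**Figure D1:**
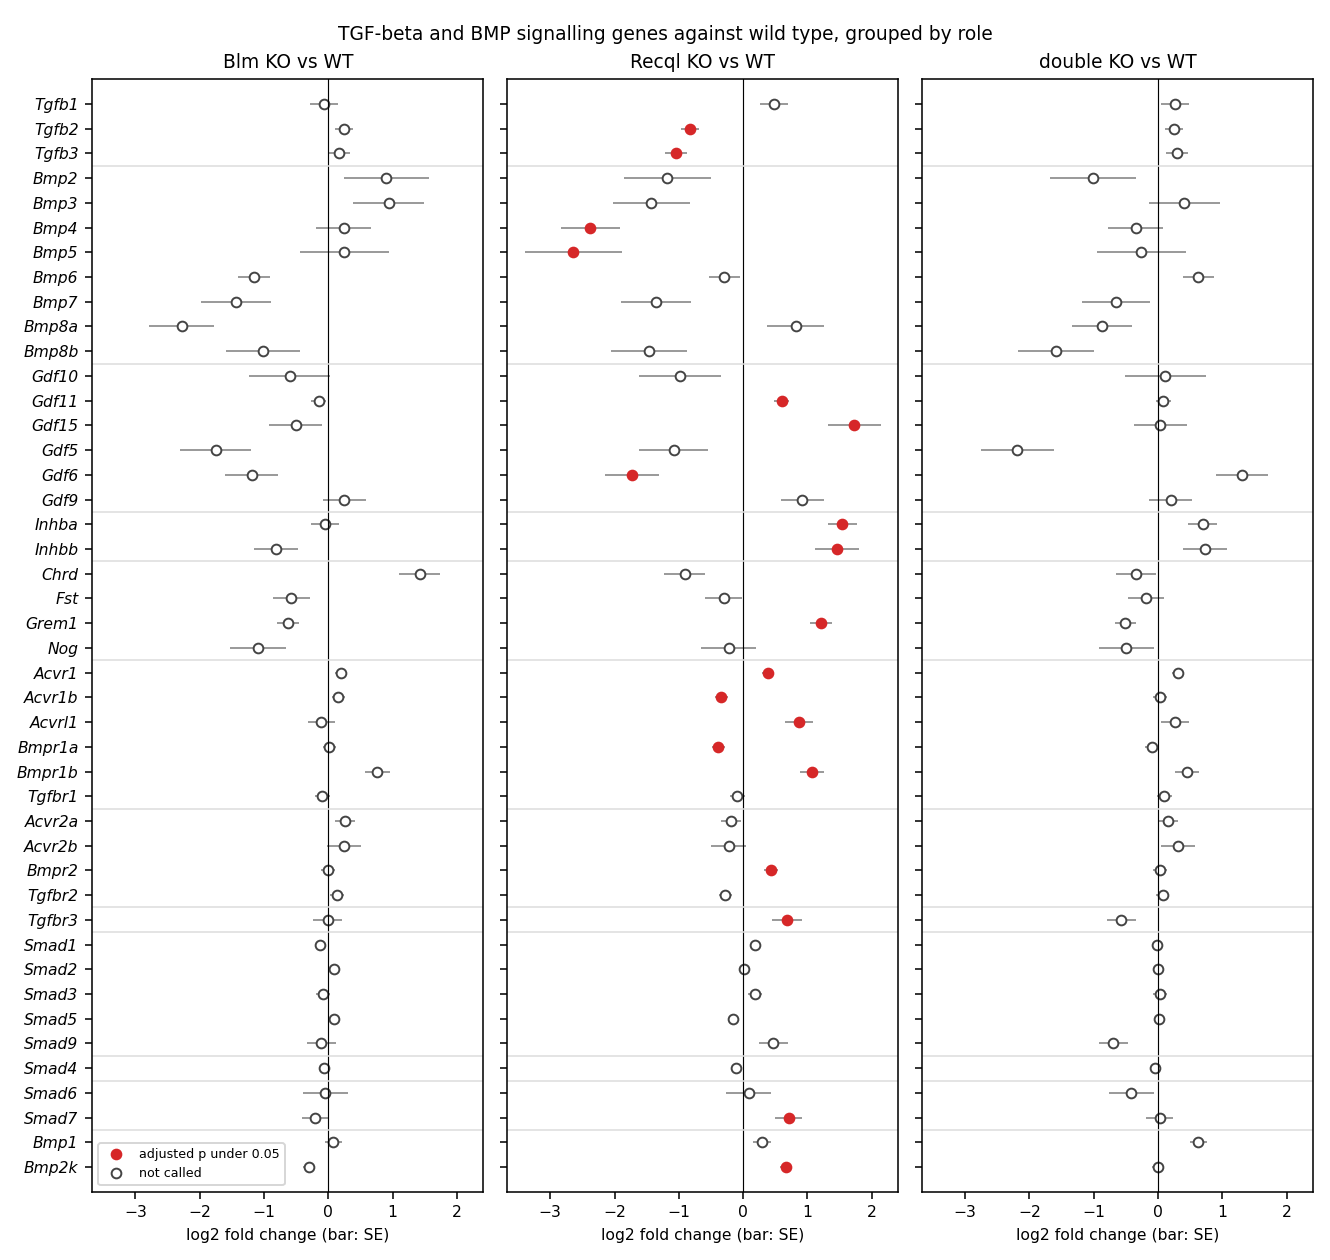
The log2 fold change of 44 of the 45 tested members against WT (horizontal axis) with its standard error as a bar, in a panel for each of the 3 mutant groups, with genes grouped by role from ligands at the top through receptors and SMADs to Bmp1 and Bmp2k at the bottom. Filled points mark an edgeR adjusted p under 0.05, which 19 of the genes drawn have in Recql KO and 0 in the other panels.

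Among the antagonist genes Grem1, Chrd, Nog and Fst, Grem1 rose in Recql KO and the others were not called. Grem1 encodes gremlin 1, which binds BMP2 and BMP4 and keeps them from their receptors. Grem1 (mm10 chromosome 2, 113746164 to 113758646) was at 221, 249 and 255 CPM in WT, with Blm KO at 129, 151 and 189, Recql KO at 543, 488 and 645, and double KO at 209, 144 and 158. All 3 Recql KO libraries lay above the other 9, and Grem1 was 2.31-fold higher than in WT (1.21 ± 0.17 SE on the log2 scale, edgeR adjusted p = 0.000986).

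Chrd, which encodes the BMP antagonist chordin, was at 3.09, 4.05 and 5.33 CPM in WT, with Blm KO at 8.56, 12.3 and 12.5, Recql KO at 1.37, 2.22 and 3.05, and double KO at 4, 2.32 and 3.53. Its highest levels were those of the Blm KO libraries and Recql KO had the lowest mean, where it was 1.88-fold lower than in WT (edgeR adjusted p = 0.0515). Chrd shares up to 239 bases of exon with Thpo on the other strand, and the strand setting of the counts is not given in the sources used here. Nog, which encodes noggin, had a mean of 7.49 CPM in WT and 6.41 in Recql KO (edgeR adjusted p = 0.724). Fst, which encodes follistatin, had means of 150.4 and 122 CPM (edgeR adjusted p = 0.452).

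Both activin subunit genes with enough counts rose in Recql KO. Inhba and Inhbb encode the beta subunits that pair to form activins. Inhba (chromosome 13, 16011851 to 16031621) was at 108, 162 and 102 CPM in WT, with Blm KO at 85.2, 156 and 116, Recql KO at 381, 348 and 353, and double KO at 209, 221 and 171. Recql KO was the highest group and double KO lay between it and WT, with no overlap between these 3 groups. Against WT, Inhba was 2.91-fold higher in Recql KO (1.54 ± 0.22 SE, edgeR adjusted p = 0.00113). Inhbb was at 21.6, 30.2 and 15.4 CPM in WT, with Blm KO at 12.3, 19.1 and 7.07, Recql KO at 64.7, 70.6 and 48.9, and double KO at 35.1, 46.3 and 29.9. Recql KO was above the other 9 libraries, while WT and double KO overlapped, and Inhbb was 2.74-fold higher in Recql KO than in WT (edgeR adjusted p = 0.011).

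Of the 3 TGF-beta ligand genes, 2 fell in Recql KO and 0 rose. Tgfb3 (chromosome 12, 86056745 to 86079041) was at 581, 531 and 412 CPM in WT, with Blm KO at 508, 684 and 516, Recql KO at 292, 212 and 231, and double KO at 566, 599 and 708. All Recql KO libraries were below the other 9, and the level was 2.07-fold lower than in WT (-1.05 ± 0.17 SE, edgeR adjusted p = 0.00189). Tgfb2 was at 80.1, 82.4 and 108 CPM in WT, with Blm KO at 97, 119.7 and 105, Recql KO at 58, 44 and 50.8, and double KO at 112, 95.6 and 114. It too was lowest in Recql KO with no overlap, at 1.77-fold lower than WT (edgeR adjusted p = 0.00233). Tgfb1, the ligand best known from fibrosis, was at 59.3, 55 and 37.7 CPM in WT, with Blm KO at 60.6, 37.3 and 47.3, Recql KO at 65.2, 72.2 and 74.9, and double KO at 49.1, 76.6 and 55.8. Its Recql KO libraries were above all WT libraries but overlapped double KO, and it was not called (log2 fold change 0.48, edgeR adjusted p = 0.118).

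Among 8 tested BMP ligand genes 2 fell and 0 rose in Recql KO, with a median log2 fold change of -1.39. Bmp4, a ligand of limb and skeletal development, was at 70.4, 75.6 and 83.9 CPM in WT, with Blm KO at 90.3, 74.8 and 107, Recql KO at 5.26, 12.8 and 26.3, and double KO at 76.3, 42.2 and 62.1. Every Recql KO library was below every other library, with a spread of 5.26 to 26.3 CPM within the group. Bmp4 was 5.19-fold lower than in WT (-2.37 ± 0.45 SE, edgeR adjusted p = 0.00409), and the log2 fold change was -3.07 without Recql KO replicate 3 and -3.86 in the Y-high libraries alone. Bmp4 shares up to 89 bases of exon with Gm15217 on the other strand. Bmp5 was at 4.73, 4.39 and 17.6 CPM in WT, with Blm KO at 12.9, 8.63 and 10.2, Recql KO at 2.84, 0.74 and 0.696, and double KO at 13.8, 3.23 and 5.3. WT replicate 3 and double KO replicate 1 were high and the Recql KO libraries lowest, and Bmp5 was 6.23-fold lower than in WT (edgeR adjusted p = 0.0246). Without Recql KO replicate 1 its log2 fold change went from -2.64 to -3.62. The Bmp5 call was lost without WT replicate 3 (log2 fold change -1.67, edgeR adjusted p = 0.106), on omitting Recql KO replicate 2 or 3 (0.0913 and 0.0777) and with a Y-linked covariate in the fit (0.0532). Bmp5 shares up to 1878 bases of exon with Gm26903 on the other strand, which has no counts of its own here. Tgfb3 and Bmpr1a share up to 257 and 290 bases with such genes, Gm48008 and Gm17110.

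Bmp2, Bmp3, Bmp6, Bmp7, Bmp8a and Bmp8b were not called in Recql KO against WT. Their log2 fold changes ranged from -1.46 (Bmp8b) to 0.82 (Bmp8a), and in these 6 genes the highest WT mean was 7.85 CPM, that of Bmp2. Bmp8a and Bmp8b are close relatives, so reads shared out between them are uncertain. Of 6 tested GDF genes 2 rose and 1 fell. Gdf15, a stress-induced relative of the family, was at 1.44, 1.97 and 2.86 CPM in WT, with Blm KO at 0.915, 1.9 and 1.6, Recql KO at 4.3, 8.54 and 7.9, and double KO at 3.06, 1.19 and 2.19. Recql KO was above the other groups, at 3.3-fold higher than WT (edgeR adjusted p = 0.0111). Gdf11, a relative of myostatin, was at 12.4, 11.9 and 10.7 CPM in WT, with Blm KO at 10.4, 10.9 and 10.2, Recql KO at 18.2, 17.9 and 17, and double KO at 11.7, 14.7 and 10.8. It rose 1.52-fold (edgeR adjusted p = 0.0042), with Recql KO again above the other 9 libraries. Gdf6, a ligand of joint and bone development, moved differently: it was at 3.68, 6.36 and 7.68 CPM in WT, with Blm KO at 4.39, 1.58 and 1.77, Recql KO at 1.13, 2.27 and 1.95, and double KO at 16.4, 14.4 and 12.9. Double KO was the highest group, and Recql KO was 3.31-fold lower than WT with no overlap (edgeR adjusted p = 0.012).

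**Figure D2:**
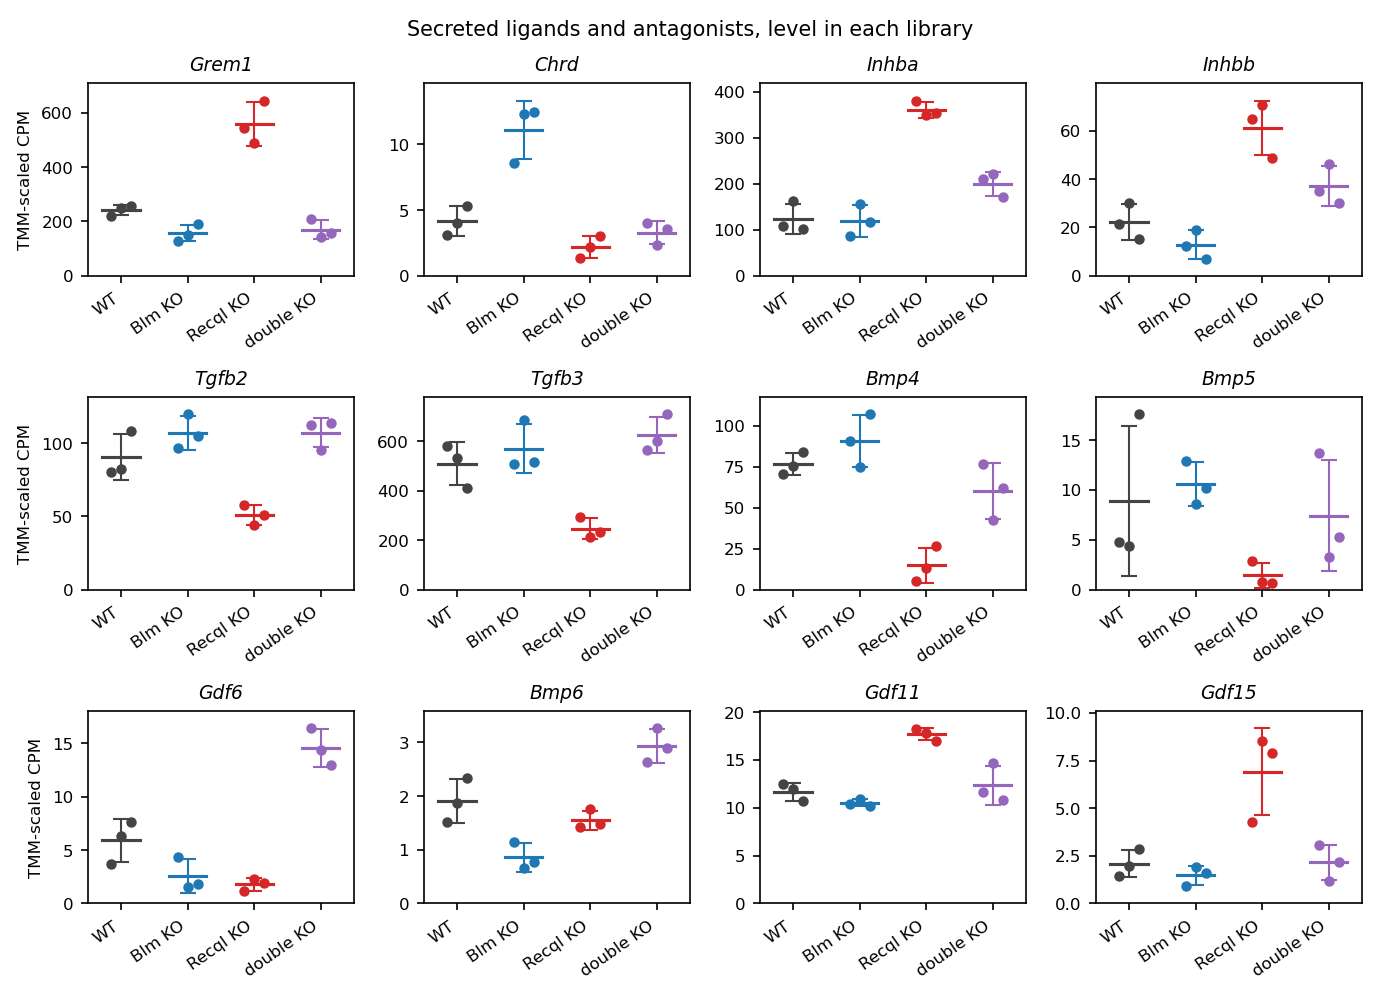
TMM-scaled CPM (vertical axis, from 0) of 12 genes for secreted ligands and antagonists in the 4 genotypes. Points are libraries, the wide line is the mean and the bar the SD of 3 libraries. Grem1, Inhba, Inhbb, Gdf11 and Gdf15 are highest and Tgfb2, Tgfb3, Bmp4 and Bmp5 lowest in Recql KO, while Gdf6 and Bmp6 are highest in double KO and Chrd in Blm KO.

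Markers of other cells differed between the same groups. The 5 cartilage markers summed to 585 to 1375 CPM in WT, 654 to 905 in Blm KO, 80.3 to 96.6 in Recql KO and 297 to 959 in double KO, with Col2a1 the largest of the 5 outside Recql KO, and Matn1 and Col9a1 at 0 in some libraries. From WT to Recql KO, Col2a1 fell from a mean of 757 to 40.1 CPM, and Acan and Col9a1 fell too. Sox9 did not follow them, with means of 54.2 and 45.3 CPM and no call (edgeR adjusted p = 0.329). The 9 fibroblast markers summed to 23884 to 25387 CPM in WT, 28634 to 36880 in Blm KO, 12240 to 15746 in Recql KO and 29196 to 33392 in double KO. Collagen genes and Vim supply most of that sum, and its members did not move together between WT and Recql KO. Col1a1, Col1a2 and Col3a1 fell (mean of 10006 against 5541 CPM for Col1a1), and Dcn rose from 50.5 to 213 CPM (edgeR adjusted p = 0.0232). Thy1 had means of 522 and 617 CPM and Pdgfrb of 367 and 379.8, and neither was called, nor were Vim, Pdgfra and Lum. Between WT and Recql KO, sums went from 12.2 to 20.2 to a range of 3.08 to 4.48 CPM for endothelial markers, from 5.9 to 14.3 to a range of 3.95 to 6.02 for macrophage and blood markers, from 23.3 to 46.2 to a range of 9.49 to 14.6 for epithelial markers and from 41.7 to 61.4 to a range of 8.64 to 23 for skeletal muscle markers. The macrophage and blood sums overlapped, and their members did not move together. Lyz2 fell from a mean of 4.51 to 0.576 CPM and Cd68 from 3.2 to 1.89. Csf1r had means of 1.26 and 1.89 CPM and Ptprc of 0.768 and 0.505, and neither was called. The muscle sum is nearly all Des (47.5 and 16.5 CPM), with Myod1, Myog, Myh3 and Ttn each at a mean under 1 CPM in these groups, and the epithelial sum is nearly all keratins, with Epcam and Cdh1 under 1 CPM as well. Bone markers had 86 to 92.6 and 59.98 to 71.9 CPM, and smooth muscle markers 4036 to 5464 and 4388 to 6248. The part of these shifts in the results for ligands and antagonists was not tested. In bulk RNA, fewer cells of a type and less RNA per cell cannot be told apart.

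Promoters of 4 members that moved in opposite directions in Recql KO are shown, as RefSeq gives them for GRCm38.p6, to let the sequence be read beside the values. Each runs over the 250 bases before the start site, 5′ to 3′ on the gene's strand, with capitals marking CAGAC, the core bound by SMAD3 and SMAD4, and GGCGCC, a GC-rich element bound by BMP SMADs. Grem1 (minus strand, chr2:113758649-113758898) and Inhba (plus strand, chr13:16011601-16011850) rose. Bmp4 (minus strand, chr14:46390670-46390919) and Tgfb2 (minus strand, chr1:186705990-186706239) fell.
Grem1: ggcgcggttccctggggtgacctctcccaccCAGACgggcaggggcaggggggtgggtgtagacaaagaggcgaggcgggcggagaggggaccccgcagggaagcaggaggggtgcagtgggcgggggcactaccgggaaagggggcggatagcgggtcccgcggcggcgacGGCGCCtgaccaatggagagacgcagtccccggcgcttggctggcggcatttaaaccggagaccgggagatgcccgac
Inhba: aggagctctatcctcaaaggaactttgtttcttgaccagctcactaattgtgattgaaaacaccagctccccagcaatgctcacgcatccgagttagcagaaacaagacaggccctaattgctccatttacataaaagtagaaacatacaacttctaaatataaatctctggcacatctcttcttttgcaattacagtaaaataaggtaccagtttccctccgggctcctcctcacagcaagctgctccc
Bmp4: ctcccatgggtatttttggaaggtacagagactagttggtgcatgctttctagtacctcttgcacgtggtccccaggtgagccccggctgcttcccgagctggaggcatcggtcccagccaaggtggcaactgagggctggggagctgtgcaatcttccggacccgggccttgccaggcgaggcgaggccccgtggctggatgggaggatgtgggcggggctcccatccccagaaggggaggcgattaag
Tgfb2: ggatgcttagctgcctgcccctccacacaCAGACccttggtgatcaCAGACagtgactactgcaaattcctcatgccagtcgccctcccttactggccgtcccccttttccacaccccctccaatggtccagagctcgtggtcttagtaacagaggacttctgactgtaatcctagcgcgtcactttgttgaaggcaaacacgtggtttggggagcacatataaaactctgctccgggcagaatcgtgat

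Grem1 held 1 CAGAC and 1 GGCGCC, Tgfb2 held 2 CAGAC, and neither motif was in the windows of Inhba and Bmp4. Promoters were listed for 37 of the 54 members, and the 31 with a single listed promoter were searched on both strands for these motifs and for the AP-1 motif TGANTCA. No motif overlapped another in the printed windows. CAGAC was found in 1 of 7 members that rose in Recql KO, 2 of 5 that fell and 7 of 13 not called, against 42.3% of 22862 promoters of the same length. GGCGCC was found in 3 of 7, 1 of 5 and 2 of 13, against 9.26% of promoters, and the 3 that rose were Grem1, Bmpr2 and Bmp2k. TGANTCA was found in 0 of these 25 windows, against 6.96% of promoters.

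Receptor genes went both ways in Recql KO. Of 6 tested type I receptor genes 3 rose and 2 fell, and of 4 type II genes 1 rose and 0 fell. Bmpr1b, a BMP type I receptor of cartilage precursors, was at 11.3, 12.7 and 8.06 CPM in WT, with Blm KO at 14.2, 20.5 and 19.7, Recql KO at 20.4, 24.9 and 22.2, and double KO at 13, 17 and 13.9. WT was the lowest group with no overlap, and Recql KO was 2.11-fold higher (1.07 ± 0.19 SE, edgeR adjusted p = 0.00267). Bmpr1a, the more abundant BMP type I receptor, was at 312, 265 and 319 CPM in WT, with Blm KO at 309, 298 and 301, Recql KO at 248, 222 and 217, and double KO at 298, 248 and 289.7. Its Recql KO libraries were below all WT libraries, 1.31-fold lower (edgeR adjusted p = 0.0134). The Bmpr1a call was lost without WT replicate 3 (0.0545) and on omitting Recql KO replicate 2 or 3 (0.057 and 0.0503).

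Acvrl1, the type I receptor ALK1 known from endothelium, was at 17.6, 28.5 and 18.6 CPM in WT, with Blm KO at 18.2, 26 and 15.9, Recql KO at 33.7, 43.9 and 40.9, and double KO at 28.1, 26.1 and 23.6. Recql KO was above all other libraries, 1.83-fold higher than WT (edgeR adjusted p = 0.013, and 0.0504 without WT replicate 3). Acvr1, the BMP receptor ALK2, was at 89.5, 83.4 and 84.8 CPM in WT, with Blm KO at 108, 95.7 and 93, Recql KO at 126, 107 and 105, and double KO at 96.6, 109.8 and 111. WT was the lowest group with no overlap, and Recql KO was 1.31-fold higher (113 ± 11.8 against 85.9 ± 3.18 CPM as mean ± SD of n = 3, edgeR adjusted p = 0.0103). Acvr1b, the activin receptor ALK4, was at 15.7, 15.8 and 15.3 CPM in WT, with Blm KO at 18.2, 18.5 and 15.5, Recql KO at 11.2, 13.6 and 12.2, and double KO at 17.2, 14.9 and 15.6. Recql KO was below all other libraries, 1.26-fold lower than WT (12.3 ± 1.19 against 15.6 ± 0.244 CPM as mean ± SD of n = 3, edgeR adjusted p = 0.03). The Acvr1b call was lost without WT replicate 1, 2 or 3 (edgeR adjusted p = 0.0681, 0.0699 and 0.0687), as it was when Recql KO replicate 1 or 3 was omitted (0.111 and 0.082). Tgfbr1, which encodes the TGF-beta type I receptor, had means of 76.8 CPM in WT and 72.1 in Recql KO and was not called (edgeR adjusted p = 0.583).

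Bmpr2, the BMP type II receptor, was at 322, 265 and 272 CPM in WT, with Blm KO at 277, 313 and 262, Recql KO at 435, 369 and 352, and double KO at 308, 289 and 279. The 3 Recql KO libraries were above the other 9, 1.35-fold higher than WT (edgeR adjusted p = 0.0138, and 0.0503 without Recql KO replicate 1). Tgfbr2, the TGF-beta type II receptor, was at 156, 156 and 179.9 CPM in WT, with Blm KO at 202, 165 and 174, Recql KO at 139, 133 and 135, and double KO at 192, 149 and 175. The Recql KO libraries were the lowest, but the difference from WT was not called (log2 fold change -0.28, edgeR adjusted p = 0.0734). Tgfbr3, the co-receptor betaglycan that presents TGF-beta2, was at 122, 91.2 and 83.4 CPM in WT, with Blm KO at 120.0, 75.6 and 98.9, Recql KO at 133, 158 and 183, and double KO at 88.5, 56.8 and 54.3. Recql KO was the highest group and double KO the lowest by mean, and Recql KO was 1.6-fold higher than WT (edgeR adjusted p = 0.0474). The Tgfbr3 call was lost without WT replicate 2 or 3 (0.125 and 0.146), without Recql KO replicate 1, 2 or 3 (0.058, 0.104 and 0.138), without Blm KO replicate 3 (0.0672), without double KO replicate 2 or 3 (0.0507 each), with no filter on low counts (0.0669) and with a Y-linked covariate in the fit (0.114).

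Of the 8 SMAD genes only Smad7 was called in Recql KO against WT. The 5 receptor SMAD genes and Smad4 had log2 fold changes from -0.16 (Smad5) to 0.47 (Smad9) and were not called. Smad4, the common partner, was at 122, 114 and 113 CPM in WT, with Blm KO at 109, 114 and 109.9, Recql KO at 113, 107 and 103, and double KO at 112, 112 and 113. All 12 values lay within 103 to 122 CPM. Smad7, the inhibitory SMAD that is itself a target of the pathway, was at 60.5, 99.9 and 95.4 CPM in WT, with Blm KO at 57, 95.3 and 69.8, Recql KO at 123, 153 and 142, and double KO at 95.6, 83 and 82.3. The Recql KO libraries were above the other 9, 1.63-fold higher than WT (edgeR adjusted p = 0.0282). The Smad7 call was lost without WT replicate 1 (0.0714), without Recql KO replicate 2 or 3 (0.0896 and 0.0628) and with a Y-linked covariate in the fit (0.0857). Smad6, the inhibitory SMAD of the BMP branch, was at 29.1, 35.6 and 54.5 CPM in WT, with Blm KO at 28.9, 44.3 and 42.3, Recql KO at 32.3, 46.4 and 47.6, and double KO at 42.5, 15 and 32.1. Its groups overlapped throughout, and it was not called (edgeR adjusted p = 0.883).

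**Figure D3:**
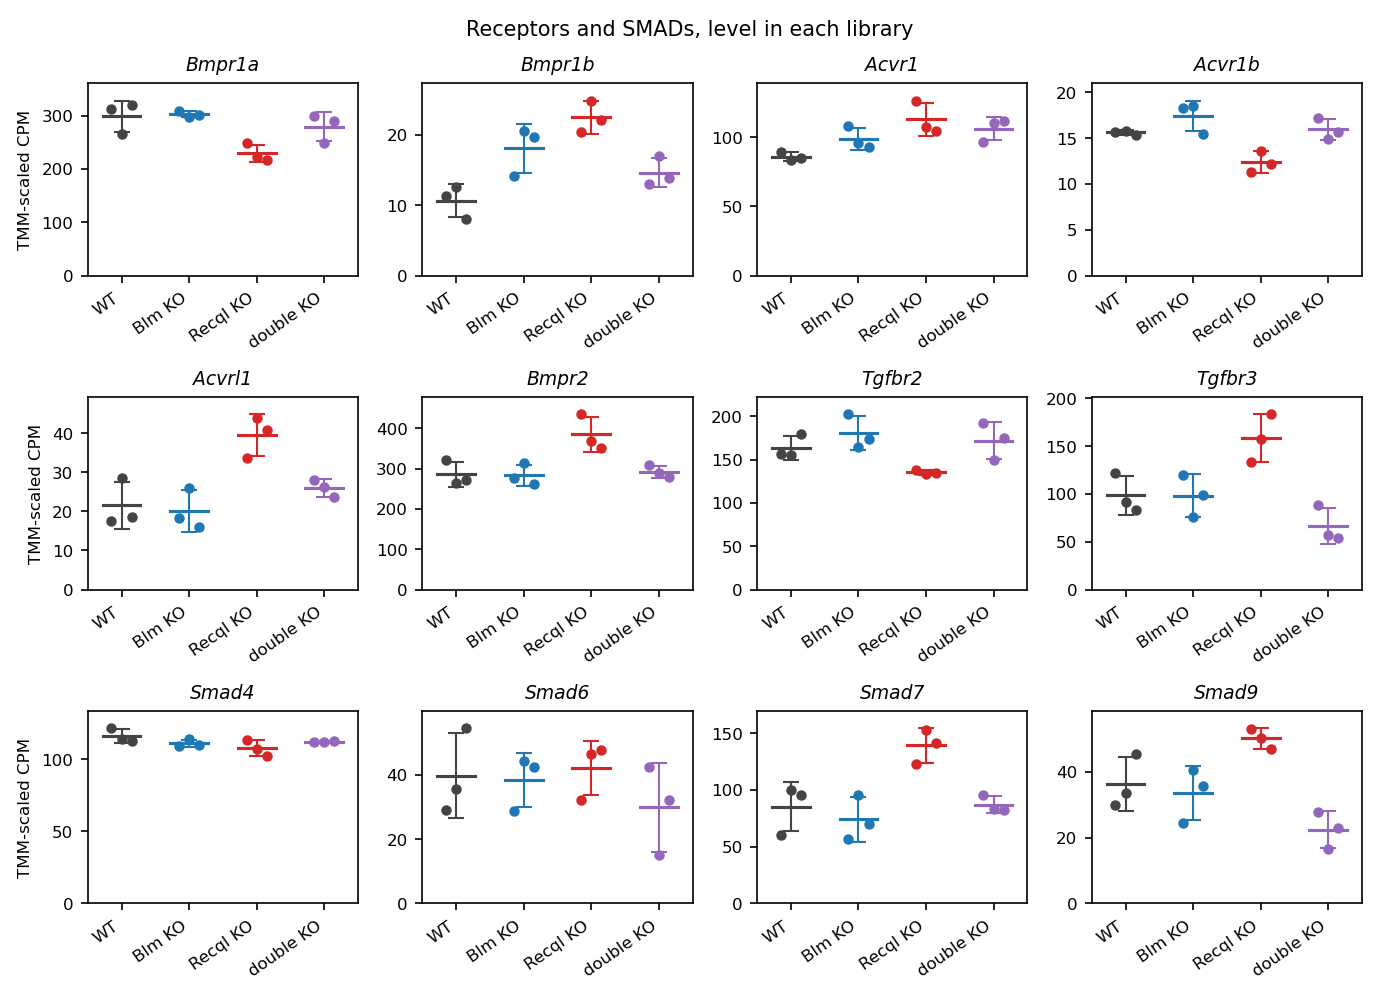
TMM-scaled CPM (vertical axis, from 0) of 12 receptor and SMAD genes in the 4 genotypes. Points are libraries, the wide line is the mean and the bar the SD of 3 libraries. Acvrl1, Bmpr2, Tgfbr3, Smad7 and Smad9 are highest in Recql KO, and Smad4 lies within 103 to 122 CPM in all 12 libraries.

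Of the genes taken in by symbol alone, Bmp2k was at 45.8, 41.8 and 43.7 CPM in WT, with Blm KO at 33.9, 37.4 and 35.7, Recql KO at 67.9, 75 and 65.1, and double KO at 48.7, 43.9 and 38.9. Recql KO was again above the other 9 libraries, and Bmp2k was 1.58-fold higher in Recql KO than in WT (69.3 ± 5.1 against 43.8 ± 2 CPM as mean ± SD of n = 3, edgeR adjusted p = 0.00086). Bmp2k shares up to 1185 bases of exon with Paqr3 on the other strand. Bmp1, which encodes the protease that trims procollagens and chordin, was at 197, 246 and 201 CPM in WT, with Blm KO at 238, 239 and 204, Recql KO at 225, 259.6 and 301, and double KO at 292, 385 and 318. Double KO was the highest group and did not overlap WT or Blm KO, but no comparison of Bmp1 was called (edgeR adjusted p = 0.111 for double KO against WT).

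The comparison of Blm KO with WT asks which members go with the Blm label alone. By edgeR 0 of 45 members were called, against 0.753% of all genes (0.363% higher and 0.39% lower), and 12 members (26.7%) had an unadjusted p under 0.05, against 18.9% of all genes. The libraries of the groups did not overlap for 3 members that were higher, against 12.6% of genes, and 8 that were lower, against 12.1%, or 11 in all, against 24.8%. Chrd was 2.68-fold higher (11.1 ± 2.22 against 4.15 ± 1.12 CPM as mean ± SD of n = 3, edgeR adjusted p = 0.0666). Grem1 was 1.55-fold lower (edgeR adjusted p = 0.112), with no overlap with WT. Among ligands, Bmp6 was 2.22-fold lower (edgeR adjusted p = 0.0649). DESeq2 called 8 members, against 6.49% of genes, among them Chrd and Bmpr1b higher and Bmp6, Bmp8a, Gdf5, Gdf6 and Grem1 lower. Leaving out double KO replicate 2, which is in neither group but shapes the shared spread, gave 4 member calls by edgeR. The same setting called 572 genes in all, against 112 with every library in the fit.

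The comparison of double KO with WT asks which members go with both labels together. By edgeR 0 of 45 members were called, against 0.121% of all genes (0.0739% higher and 0.0471% lower), and 11 members (24.4%) had an unadjusted p under 0.05, against 10.8% of all genes. There was no overlap with WT for 6 members that were higher, against 7.31% of genes, and 3 that were lower, against 6.82%, or 9 in all, against 14.1%. Gdf6 was 2.47-fold higher (edgeR adjusted p = 0.275), Inhba 1.62-fold higher (edgeR adjusted p = 0.296) and Bmp6 1.54-fold higher (edgeR adjusted p = 0.39), all with the lowest double KO library above the highest WT library. Grem1 was 1.42-fold lower (edgeR adjusted p = 0.325). DESeq2 called 3 members, Bmp1 and Gdf6 higher and Gdf5 lower, against 2.19% of genes.

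Double KO was next set against each single KO. Against Blm KO, 3 of 45 members were called, against 1.96% of all genes, with Gdf6 and Bmp6 higher (2 members, against 0.934% of genes) and Chrd lower (1 member, against 1.02%). There was no overlap for 9 members that were higher, against 12% of genes, and 2 that were lower, against 14.1%, or 11 in all, against 26.2%. Gdf6 was 5.64-fold higher (14.6 ± 1.76 against 2.58 ± 1.57 CPM as mean ± SD of n = 3, 2.50 ± 0.42 SE on the log2 scale, edgeR adjusted p = 0.0219). Bmp6, a ligand also known for iron control, was at 1.52, 1.87 and 2.33 CPM in WT, with Blm KO at 1.15, 0.65 and 0.767, Recql KO at 1.43, 1.76 and 1.47, and double KO at 2.64, 3.27 and 2.9. Double KO held the highest and Blm KO the lowest levels with no overlap, a 3.42-fold difference (edgeR adjusted p = 0.013), and Bmp6 shares up to 224 bases of exon with Txndc5 on the other strand. Chrd was 3.39-fold lower in double KO than in Blm KO (edgeR adjusted p = 0.027). These calls were lost without Blm KO replicate 3 (Gdf6 and Chrd 0.131 each, Bmp6 0.108) and without double KO replicate 2 (Gdf6 0.072, Chrd 0.0929, Bmp6 0.0575). Gdf6 and Chrd were also lost without double KO replicate 1 (0.0606 and 0.0567). Without Blm KO replicate 1 the log2 fold change of Gdf6 was 3.12. In a fit on these groups alone the adjusted p-values were 0.0951 for Gdf6, 0.0706 for Chrd and 0.0802 for Bmp6.

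Against Recql KO, 21 of 45 members were called in double KO (46.7%), against 24.7% of all genes, 9 higher (against 13.2% of genes) and 12 lower (against 11.6%). The groups did not overlap for 12 members that were higher, against 22.5% of genes, and 16 that were lower, against 21.1%, or 28 in all, against 43.6%. The Recql KO libraries stand in this comparison and in that with WT, so the values of each are given and not counted as separate evidence. Grem1 was 3.29-fold lower in double KO than in Recql KO (-1.72 ± 0.17 SE on the log2 scale, edgeR adjusted p = 0.000221). Tgfb3 was 2.55-fold higher (edgeR adjusted p = 0.000685), Tgfb2 2.11-fold higher (edgeR adjusted p = 0.000789) and Bmp4 4.07-fold higher (edgeR adjusted p = 0.00932, and not called in a fit on these groups alone). The Bmp4 log2 fold change of 2.03 became 2.73 without Recql KO replicate 3. Gdf6 differed most among the called members, at 8.16-fold higher (edgeR adjusted p = 0.00121). Smad9, a receptor SMAD of the BMP branch, was at 30.03, 33.4 and 45.4 CPM in WT, with Blm KO at 24.6, 40.7 and 35.6, Recql KO at 53.2, 50.4 and 47, and double KO at 27.8, 16.5 and 22.8. Double KO was the lowest group by mean and Recql KO the highest, and the difference was 2.24-fold (edgeR adjusted p = 0.00521). Tgfbr3 was 2.38-fold lower (edgeR adjusted p = 0.00431). Bmp3 was at 0.758, 0.484 and 0.569 CPM in WT, with Blm KO at 1.9, 0.369 and 1.21, Recql KO at 0.259, 0.241 and 0.164, and double KO at 1.08, 0.983 and 0.347, and Bmp8a was at 0.444, 1.12 and 0.626 CPM in WT, with Blm KO at 0.153, 0.193 and 0.102, Recql KO at 1.26, 0.861 and 1.76, and double KO at 0.434, 0.562 and 0.201. Both lay near 1 CPM or below in most libraries, Bmp3 was 3.58-fold higher (edgeR adjusted p = 0.0453) and Bmp8a 3.22-fold lower (edgeR adjusted p = 0.0235), and each call was lost without several single libraries. With Gdf11 and Bmp2k, Grem1, Tgfb2, Tgfb3, Bmp4, Gdf6, Smad9 and Tgfbr3 were the 9 members whose call held whichever of the 12 libraries was left out. The other 12 calls were each lost without at least 1 library. Among the Y-high libraries, Recql KO and double KO have a single library each, so the spread in that fit comes from WT alone. The called members kept their direction in it.

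The interaction asks whether the difference that goes with the Recql label depends on the Blm label, as the log2 fold change of double KO over Blm KO less that of Recql KO over WT. It was called for 7 of 45 members (15.6%), against 10.4% of all genes, 4 positive (against 5.86%) and 3 negative (against 4.58%). Gdf6 had the largest value, 4.22 ± 0.59 SE (edgeR adjusted p = 0.00473), with a log2 fold change of -1.73 from WT to Recql KO and 2.50 from Blm KO to double KO. For Tgfb3 these were -1.05 and 0.13 (interaction edgeR adjusted p = 0.0161), and for Grem1 1.21 and 0.12 (edgeR adjusted p = 0.0206, and 0.0539 without Blm KO replicate 3). Inhba and Bmp4, called in Recql KO against WT, had no called interaction (edgeR adjusted p = 0.126 and 0.0883). In the Y-high libraries alone, each mutant genotype is a single library, so the calls of that fit cannot decide on an interaction.

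**Figure D4:**
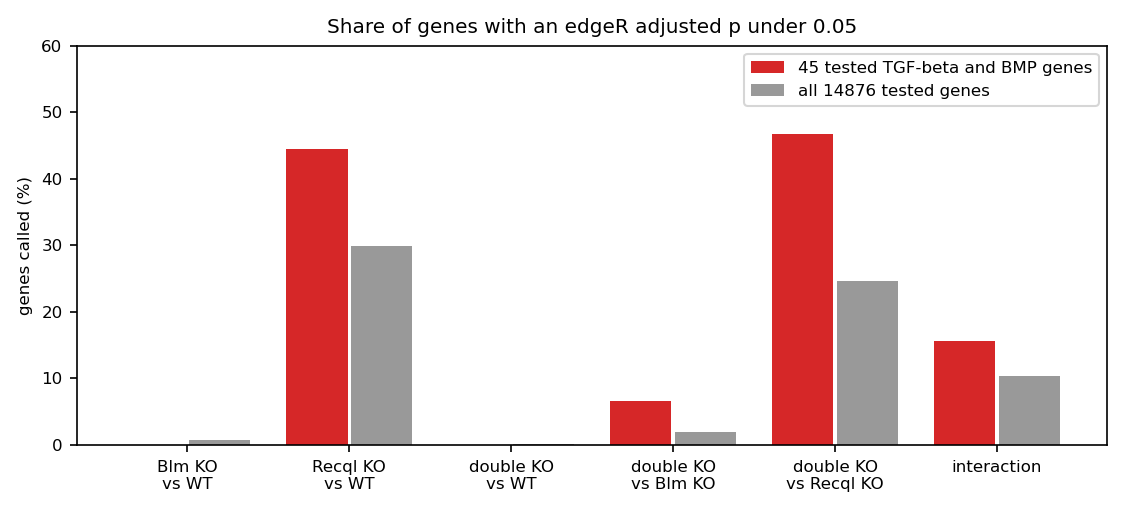
Percent of genes with an edgeR adjusted p under 0.05 (vertical axis) in the 6 comparisons, for the 45 tested members and for all 14876 tested genes. Members were called at 44.4% against 29.9% in Recql KO against WT and at 46.7% against 24.7% in double KO against Recql KO, and at 0% in Blm KO and double KO against WT.

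Other genes of the pathway were taken from lists by role, in the comparison of Recql KO with WT, where 29.9% of all genes were called. Among 18 regulators of receptors and SMADs 6 rose and 0 fell. They include the ubiquitin ligase genes Smurf1 (1.61-fold higher, adjusted p = 0.00126), Nedd4l (1.58-fold higher, adjusted p = 0.01) and Wwp1 (1.32-fold higher, adjusted p = 0.0177) and the SMAD phosphatase gene Ppm1a (1.21-fold higher, adjusted p = 0.011). Among 15 genes that bind or activate latent TGF-beta 3 rose and 3 fell. The fibrillin gene Fbn2 was 8.16-fold lower (39.9 against 326 CPM, edgeR adjusted p = 0.000219), and the integrin gene Itgb8, whose product activates latent TGF-beta, was 3.15-fold lower (edgeR adjusted p = 0.00391). Other integrin genes of this list did not fall. Itgb6 was 5.6-fold higher at means of 0.627 against 0.111 CPM (edgeR adjusted p = 0.00806), and Itgav was 1.35-fold higher (edgeR adjusted p = 0.0209). Itgb5 was not called (edgeR adjusted p = 0.291). Lrrc32, which encodes the latent TGF-beta anchor GARP, was 2.02-fold higher (edgeR adjusted p = 0.0187).

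Among 17 tested genes of other secreted antagonists and modulators 3 rose and 4 fell. The chordin-like gene Chrdl1 was 14.9-fold lower (0.417 against 6.11 CPM, edgeR adjusted p = 0.00103), and the activin-binding gene Fstl3 was 1.95-fold higher (edgeR adjusted p = 0.00427). Of 5 tested co-receptor genes Rgmb rose and Rgma fell. Both encode BMP co-receptors, and they were 1.63-fold higher and 1.37-fold lower (edgeR adjusted p = 0.00874 and 0.0244).

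Known target genes went both ways. Of 10 BMP target genes 2 rose (Msx2, Tbx20) and 2 fell (Msx1, Dlx5), with a median log2 fold change of -0.05. Dlx5 and Msx1, homeobox genes of the skeleton and limb, were 6.17-fold lower and 15.4-fold lower (edgeR adjusted p = 0.000692 and 0.016). The targets Id1, Id2 and Id3 had log2 fold changes of -0.04, -0.05 and -0.32, and Id4 one of 0.58 (edgeR adjusted p = 0.0613), and none of these was called. Of 22 TGF-beta target genes 4 rose (Timp1, Pdgfa, Tnc, Cdkn2b) and 3 fell (Col1a1, Col1a2, Tgfbi), with a median of 0.20. Col1a2 and Tgfbi, a collagen gene and the gene of a TGF-beta induced matrix protein, were 1.86-fold lower and 3.61-fold lower (edgeR adjusted p = 0.00215 and 0.00307). Timp1, which encodes a metalloproteinase inhibitor, was 1.77-fold higher (edgeR adjusted p = 0.000464). In Blm KO and double KO against WT 0 genes of these 6 lists were called by edgeR, against 0.753% and 0.121% of all genes.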

How the data were processed

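RNA sequencing of polyadenylated RNA covered 12 libraries of primary mouse embryonic fibroblasts. The authors deposited expected counts per gene, made with Bowtie2 2.1.0 and RSEM 1.2.15 on mm10 per the submitters' processing notes. RSEM shares out ambiguous reads, so counts of overlapping or related genes are estimates. The annotation and the strand setting are not given in the sources used here. Counts were rounded and analysed in R 4.3.3 with edgeR 4.0.16: filterByExpr kept 14876 of 24054 genes, TMM factors were 0.96 to 1.03, and a robust quasi-likelihood fit with 1 mean per genotype (8 residual degrees of freedom) used Benjamini-Hochberg adjustment over all genes. Lengths and positions came from GENCODE M21. The steps were tested on simulated data.

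By rule, values per library were given for up to 30 members called in any of the 6 comparisons and with a mean of at least 1 CPM in a genotype, which 26 met. Some results are not reported here, although counts and shares cover every member. Uncalled members with a mean of at least 20 CPM could be named, and up to 4 called genes per list and comparison by smallest adjusted p. Bmp2, Bmp7, Bmp8b, Gdf1, Gdf5, Gdf10, Nog, the further called genes of the lists and Id1 to Id4 were named after their values were seen. Members and lists were chosen with earlier results of these data known. Alternatives were other scaling (RLE), other filters on low counts, DESeq2 1.42.0, a fit restricted to the groups of a comparison, a replicate block, a covariate for Y-linked transcripts, only those libraries above 100 CPM of Y-linked transcripts, and each library left out. All libraries were used. Counting limits cover counting error only.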

Additional observations from a re-analysis of the deposited data

Results flagged for a closer look

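By the edgeR test, the interaction was called for 7 of 45 tested members (15.6%), against 10.4% of all genes. For these members the difference that goes with the Recql label was not the same with and without the Blm label. Gdf6 differed by 4.22 on the log2 scale (edgeR adjusted p = 0.00473). Bmp6 differed by 2.07 on the log2 scale (edgeR adjusted p = 0.00791). Tgfb3 differed by 1.18 on the log2 scale (edgeR adjusted p = 0.0161). Tgfb2 differed by 0.83 on the log2 scale (edgeR adjusted p = 0.028). Bmpr1b differed by -1.38 on the log2 scale (edgeR adjusted p = 0.0133). Grem1 differed by -1.09 on the log2 scale (edgeR adjusted p = 0.0206). Tgfbr3 differed by -1.24 on the log2 scale (edgeR adjusted p = 0.0389). The 4 ligand genes had positive values and Bmpr1b, Grem1 and Tgfbr3 negative ones. For Bmpr1b the log2 fold change was 1.07 from WT to Recql KO and -0.31 from Blm KO to double KO, and for Tgfbr3 0.68 and -0.56. The calls of Gdf6, Bmp6, Tgfb3 and Bmpr1b held whichever library was left out. That of Tgfb2 was lost without WT replicate 3 (0.0505), Blm KO replicate 3 (0.0726), Recql KO replicate 2 or 3 (0.0724 and 0.0582) or double KO replicate 3 (0.0502). That of Grem1 was lost without Blm KO replicate 3 (0.0539), and that of Tgfbr3 without any of 9 libraries (0.0544 to 0.09), the exceptions being WT replicate 1, Blm KO replicate 2 and double KO replicate 1. The Tgfbr3 call was also lost with no filter on low counts (0.052) and with a Y-linked covariate (0.0823). Without Blm KO replicate 1 the value of Gdf6 was 4.84. In the Y-high libraries alone (over 100 CPM of Y-linked transcripts) each mutant genotype is a single library. The values there were 4.08 for Gdf6, 1.90 for Bmp6 and -0.69 for Bmpr1b.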

How the results depend on the processing

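All 51 called differences of members kept their direction under every alternative that gave a value. Of 20 in Recql KO against WT, 12 stayed called without any single library, as did 9 of 21 in double KO against Recql KO, 0 of 3 in double KO against Blm KO and 4 of 7 interactions. RLE scaling, a stricter filter (CPM over 1 in at least 3 libraries), DESeq2 and the replicate block kept all 51 calls, no filter on low counts 47, fits on the groups compared 37 of 44, and the Y-linked covariate 46. In the Y-high libraries alone, 8 were kept. The scaling alternatives moved the median of all genes by less than 0.1 on the log2 scale.

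With DESeq2, members called were 8 in Blm KO against WT, 3 in double KO against WT and 7 in double KO against Blm KO (0, 0 and 3 by edgeR), and genes called were 947, 337 and 1404 (112, 18 and 291 by edgeR), with 2616 for the interaction (1554). In the Y-high libraries alone, members called were 6 in Recql KO against WT, 0 in double KO against Blm KO, 3 in double KO against Recql KO and 0 for the interaction (20, 3, 21 and 7 with all libraries), and genes called were 1128, 0, 373 and 5 (4444, 291, 3681 and 1554), with 2 in Blm KO and 3 in double KO against WT. The Y-linked covariate gave 43 genes in Blm KO and 43 in double KO against WT, and 820 for the interaction. Fits on the groups compared gave 0 genes in double KO against WT, and 0 members and 8 genes in double KO against Blm KO. The replicate block gave 50 genes in double KO against WT, and 7 members and 762 genes in double KO against Blm KO. Same-numbered libraries of different genotypes had correlated deviations in 5 of 18 pairs (over 0.1, range -0.168 to 0.227), and the same number gave the best match in 16 of 36 cases, so the numbers were not taken to pair libraries.

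With each library left out, members and genes called were 0 to 4 and 31 to 572 in Blm KO against WT, 14 to 22 and 2692 to 4964 in Recql KO against WT, 0 to 0 and 8 to 28 in double KO against WT, 0 to 7 and 9 to 585 in double KO against Blm KO, 11 to 22 and 2157 to 3875 in double KO against Recql KO, and 4 to 10 and 549 to 1836 for the interaction. A library left out leaves 2 in its group, and the Y-high libraries leave a single library in each mutant group. The 9 members with too few counts to be tested could not be compared at this depth.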

Other observations

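Gdf1 was listed at 0 in 10 libraries and at 3.51 CPM in WT replicate 2 and 3.35 CPM in double KO replicate 2. Cers1, which overlaps it by up to 889 bases of exon on the same strand, was listed at 0 in these 2 libraries and at 3.79 to 5.9 CPM in the other 10.

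Some members varied widely within a label. Bmp2, a ligand of bone formation, was at 7.78, 5.86 and 9.9 CPM in WT, with Blm KO at 21.4, 2.23 and 20.4, Recql KO at 3.09, 3.15 and 4.14, and double KO at 6.77, 2.81 and 2.12. Blm KO replicate 2 was far below the other Blm KO libraries, and Bmp2 was called in none of the 6 comparisons. Gdf10, a relative of BMP3, was at 9.98, 10.8 and 11.7 CPM in WT, with Blm KO at 14.9, 2.27 and 4.24, Recql KO at 2.65, 7.09 and 6.61, and double KO at 18.8, 6.08 and 10.2. Replicate 1 was the highest library of Blm KO and of double KO for it. In Blm KO, replicate 2 was the highest library for 10 of the 13 members that rose in Recql KO, and in WT replicate 2 was the highest for 6 of them, which include Acvrl1, Bmpr1b, Inhba, Inhbb and Smad7. The same count was not made over all genes, so it is not read as a trait of these members.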
